A study of Mus musculus with 11 samples.

Results

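MicroRNA host genes and long noncoding RNAs were described here through 6 transcripts, Mir155hg, Mir17hg, Gas5, Snhg1, Malat1 and Neat1. They were found as every probe set of the array whose annotation gave exactly 1 gene symbol and whose symbol was one of these 6. This gave 19 of 45101 probe sets, for 5 of the 6 genes and of 18193 genes in all: 1 for Mir155hg, 4 for Gas5, 5 for Snhg1, 7 for Malat1 and 2 for Neat1. Mir17hg had 0 probe sets with its symbol alone, so no value is given for it, and 2 probe sets that pair a member with a second symbol were left out. Splenic T cells came from female C57BL6 mice aged 3 to 4 months that either lacked cereblon (crbn-/-, called knockout) or were wild type. The groups were knockout activated (3 arrays), wild-type activated (2 arrays), knockout naive (3 arrays) and wild-type naive (3 arrays). Activated cells had been held for 12 hours on plate-bound anti-CD3 (5 µg/ml) with soluble anti-CD28 (1 µg/ml), and naive cells had been collected without it. The labels name no cultured group without the antibodies, so time in culture and stimulation cannot be told apart, and they do not say which part of the cereblon gene was removed.

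A microRNA host gene is a transcript from which a microRNA hairpin is cut in the nucleus. Mir155hg, also known as BIC, carries miR-155, a microRNA needed for normal T and B cell responses. Gas5 and Snhg1 are spliced transcripts whose introns carry small nucleolar RNAs, which guide the chemical modification of ribosomal RNA, and whose joined exons are removed by nonsense-mediated decay. Malat1 and Neat1 are abundant nuclear RNAs made from neighbouring genes. Malat1 gathers in nuclear speckles, stores of splicing factors, and Neat1 is the scaffold around which paraspeckles assemble.

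The product of Mir155hg is shown because its host had the largest activation difference among the 5 genes. RefSeq sequences of the build GRCm38.p6 place the hairpin at chr16:84714140-84714204 on the plus strand. In the hairpin, capitals mark the 2 mature arms, and in each mature microRNA they mark the seed, bases 2 to 8, through which targets are recognised.
miR-155 hairpin: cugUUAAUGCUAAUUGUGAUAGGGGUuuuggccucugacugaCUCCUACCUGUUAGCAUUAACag
miR-155-5p: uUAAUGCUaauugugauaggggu
miR-155-3p: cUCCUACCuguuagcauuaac
The arrays measured the host transcript, not the mature microRNA.

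The RefSeq window around the Mir155hg start site, chr16:84712773-84713072 on the plus strand of GRCm38.p6, holds 250 bases before the start in lower case and 50 after it in capitals. It is shown because this start had the largest activation difference of the 4 members with a window, Mir155hg, Gas5, Snhg1 and Malat1.
Mir155hg start: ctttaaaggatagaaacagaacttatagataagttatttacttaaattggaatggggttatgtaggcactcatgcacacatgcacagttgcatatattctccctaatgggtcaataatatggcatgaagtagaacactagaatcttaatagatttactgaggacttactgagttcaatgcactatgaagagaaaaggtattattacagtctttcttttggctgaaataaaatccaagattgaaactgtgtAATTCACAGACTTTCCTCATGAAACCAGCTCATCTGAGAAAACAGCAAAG
Its GC content was 34.3%, against 47.0% for Malat1, 56.7% for Snhg1 and 73.7% and 62.0% for the 2 Gas5 windows, with a median of 52.7% over all 32851 windows. Both strands were searched for the AP-1 motif TGANTCA (in 7.81% of all windows), the CRE motif TGACGTCA (1.79%), the E-box CACGTG (7.15%) and the TATA box TATAAA (13.6%). The second Gas5 window held 1 CRE match and the Snhg1 window 1 TATA box match. These letters had 0 matches in the Mir155hg and Malat1 windows.

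All levels are log2 values of the authors' RMA summary, in which 1 unit is a doubling of signal, and levels of different probe sets are not compared with each other. The arrays of a group correlated at 0.994 to 0.997 over all probe sets. The brightest Crbn probe set, 1423095_s_at, was lower in knockout cells, with a log2 difference of -1.13 (SE 0.09) in naive and -0.90 (SE 0.10) in activated cells (limma, adjusted p = 9.29e-05 and 0.00381). Of its other 2 probe sets, 1423094_at was lower in both states (-1.09 naive and -0.91 activated, adjusted p = 8.51e-05 and 0.00275), and 1455734_at passed in naive cells (-0.76, adjusted p = 0.00245) but not in activated cells (-0.56, adjusted p = 0.0691). T cell markers were present in every group. The log2 of their summed signals was 14.4 to 14.5 in knockout activated and 14.5 to 14.6 in wild-type activated cells. It was 15.2 in knockout naive and 15.1 to 15.3 in wild-type naive cells. All marker sums given here are of this kind, in which the brightest markers weigh most. B cell markers, which the bead selection should remove, were measured as well and summed to 9.75 to 10.4 in knockout activated, 9.43 to 9.83 in wild-type activated, 10.7 to 11.7 in knockout naive and 10.4 to 10.7 in wild-type naive cells.

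**Figure D1:**
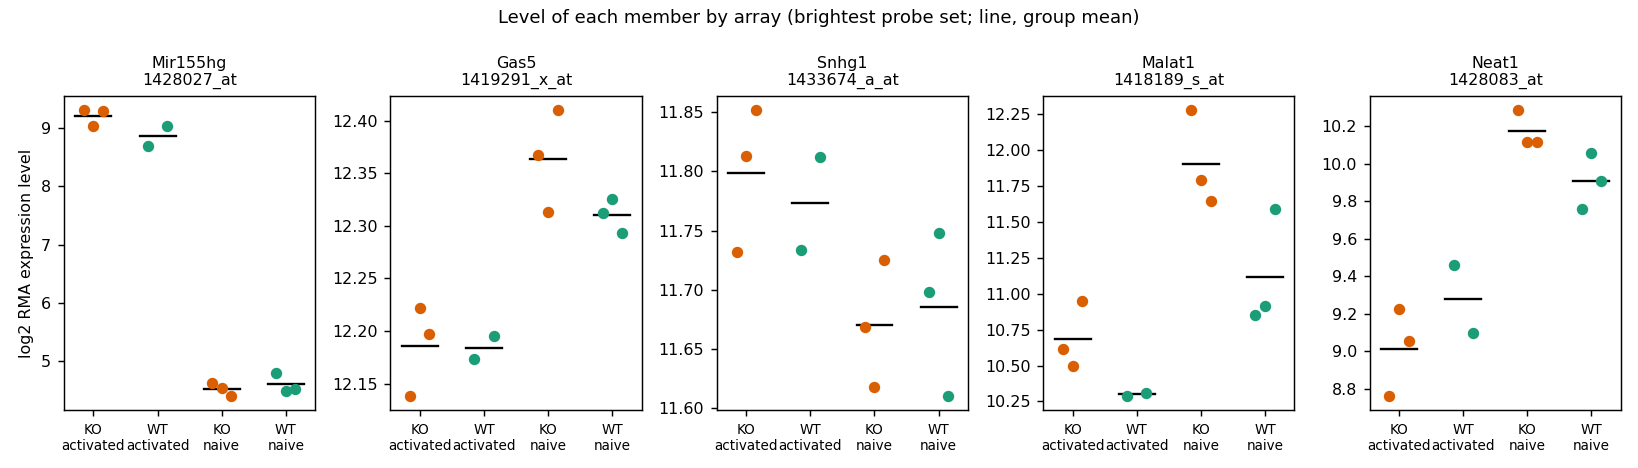
Log2 RMA level (vertical axis, a separate scale in each panel) of the brightest probe set of each of the 5 measured genes in the 4 groups (horizontal axis); points are arrays and lines are group means. Mir155hg lies between 8.69 and 9.31 in the 5 activated arrays and between 4.39 and 4.79 in the 6 naive arrays.

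Activation was tested in each genotype over all 45037 probe sets that are no controls, with an adjusted p under 0.05 as the threshold. In knockout cells 15 of the 19 probe sets passed, 5 higher and 10 lower in activated cells, where 37.5% of all probe sets passed (18.8% higher and 18.7% lower). In wild-type cells 11 of the 19 passed, 3 higher and 8 lower, against 33.9% of all probe sets (16.6% higher and 17.3% lower). The wild-type count was 7 when wild-type activated replicate 2 was left out. These shares cover dim probe sets as well. With only probe sets above the median of mean levels kept, 14237 passed in knockout activation, 15 of them members, against 16875 with all kept. In wild-type activation 13004 passed, 13 of them members, against 15268. The share among brighter probe sets was thus higher, and the member counts stand out less against it. Probe sets of 1 gene are also repeated readings of the same arrays. Mir155hg and 1 of the 2 Neat1 probe sets passed in both genotypes, the first higher and the second lower. Malat1 probe sets passed as lower only, and those of Gas5 in opposite directions. With the arrays hybridised from bulk RNA, fewer cells of a type and less RNA per cell cannot be told apart in any of these differences.

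Mir155hg was measured by probe set 1428027_at. Its level was 9.31, 9.04 and 9.29 in knockout activated cells, against 4.61, 4.54 and 4.39 in knockout naive cells. In wild-type activated cells it was 8.69 and 9.04, against 4.79, 4.49 and 4.51 in wild-type naive cells. Every activated array lay far above every naive array in both genotypes. The rise was 4.70 on the log2 scale in knockout cells (SE 0.12, 26.0-fold, limma adjusted p = 4.16e-11) and 4.27 in wild-type cells (SE 0.13, 19.3-fold, adjusted p = 5.1e-10). Ranked by their brightest probe sets, 18193 genes were measured, and Mir155hg stood at rank 5 from the highest in knockout and rank 6 in wild-type activation. In 4 of the 6 naive arrays its level was under 4.57, the smallest lower quartile found among the 11 arrays. The naive levels therefore lie in the dimmest part of the range, and the folds rest on them.

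The order of the Mir155hg group means was 9.22 in knockout activated, 8.87 in wild-type activated, 4.60 in wild-type naive and 4.51 in knockout naive cells. The naive groups overlapped, and so did the activated groups, since wild-type replicate 2 (9.04) was level with knockout replicate 2 (9.04). Their difference, knockout minus wild type, was 0.35 (95% interval 0.07 to 0.63, unadjusted p = 0.0193, limma adjusted p = 0.489), against -0.08 in naive cells (interval -0.33 to 0.17, adjusted p = 0.794). The response of knockout cells exceeded that of wild-type cells by 0.43 (interval 0.05 to 0.81), which did not pass (unadjusted p = 0.029, limma adjusted p = 0.313). Over all probe sets 14% had an unadjusted interaction p under 0.05. The genotype difference in activated cells was 0.17 and the interaction 0.25 when wild-type activated replicate 1 was left out, and 0.52 and 0.61 when replicate 2 was.

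Genes related to miR-155 were read from lists. In each comparison up to 2 genes of a list were named, those of largest difference past the threshold. A gene named in 1 genotype alone may thus have passed in the other as well. Each gene was read by its brightest probe set. In that reading 20.3% of all genes rose and 21.9% fell in knockout activation, 19.2% rose and 20.4% fell in wild-type activation, and the median log2 difference was -0.03 and 0.06. Of 13 measured genes reported as miR-155 targets, 2 rose and 8 fell in knockout activation (median -0.44), and 2 rose and 7 fell in wild-type activation (median -0.25). Socs1, an inhibitor of cytokine signalling, rose by 1.81 in knockout cells and 1.61 in wild-type cells (limma adjusted p = 3.14e-09 and 5.45e-08). Ikbke, a kinase of innate immune signalling, differed by -1.58 in knockout and -1.27 in wild-type cells (adjusted p = 7.33e-08 and 2.84e-06). The list therefore held genes that moved with Mir155hg and genes that moved against it.

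Of 15 measured genes reported as transcription regulators of the host genes, 6 rose and 6 fell in knockout activation, and 5 rose and 6 fell in wild-type activation, with medians of 0.13 and 0.10. Irf4, a transcription factor of activated lymphocytes, rose by 4.24 in knockout and 4.07 in wild-type cells (limma adjusted p = 9.41e-11 and 7.04e-10). Fosb, a subunit of AP-1, differed by -3.46 in knockout and -3.88 in wild-type cells (adjusted p = 4.03e-10 and 1.35e-09). Irf4 was also 1 of the 3 genes whose levels over the 11 arrays were most like those of Mir155hg among 11290 genes searched, with a Pearson correlation of 0.999, beside the mitochondrial ribosomal protein genes Mrps6 (0.999) and Mrpl15 (0.998). The correlations of the deviations from the group means were 0.77 for Irf4, 0.91 for Mrps6 and 0.89 for Mrpl15. These values, and those given for the other genes, are descriptions with no test, since all arrays share the same 4 groups.

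Machinery that makes and uses microRNAs was also counted. Of 19 processing and effector genes 5 rose and 10 fell in knockout activation (median -0.26), and 4 rose and 8 fell in wild-type activation (median -0.20). Tarbp2, a partner of Dicer, rose by 1.13 in knockout and 0.88 in wild-type cells (limma adjusted p = 3.94e-07 and 1.91e-05). Tnrc6b, an effector of silencing that binds Argonaute, differed by -1.12 in knockout cells (adjusted p = 7.07e-06), and Prkra, a second partner of Dicer, by -1.21 in wild-type cells (adjusted p = 0.000169). Of 24 other microRNA host genes, 6 rose and 7 fell in knockout activation and 7 rose and 8 fell in wild-type activation, with medians of 0.04 and -0.02, near those of all genes. Dleu2, host of miR-15a and miR-16-1, differed by -1.49 in knockout and -1.70 in wild-type cells (adjusted p = 9.81e-07 and 1.54e-06), Ctdsp1, host of miR-26b, by -1.38 in knockout cells (adjusted p = 2.85e-08), and Vmp1, host of miR-21, rose by 1.29 in wild-type cells (adjusted p = 4.22e-08).

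**Figure D2:**
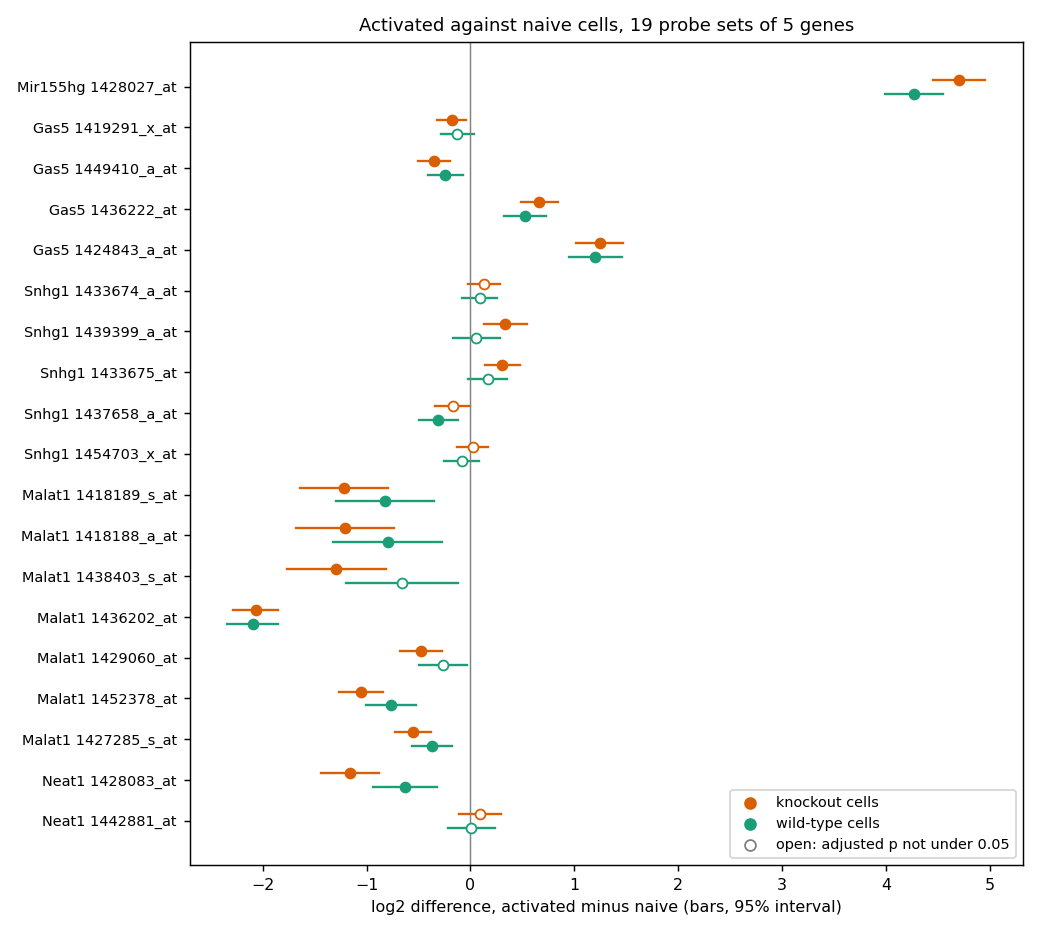
Log2 difference, activated minus naive (horizontal axis), of each of the 19 probe sets (vertical axis) in knockout and in wild-type cells, with 95% intervals as bars; filled points passed an adjusted p under 0.05. Mir155hg stands apart at 4.70 and 4.27, all 7 Malat1 probe sets lie below 0, and Gas5 has 2 probe sets above and 2 below 0 in each genotype.

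Gas5 gave 2 pairs of probe sets that moved against each other. Probe set 1424843_a_at was at 10.88, 10.81 and 10.79 in knockout activated cells, against 9.84, 9.50 and 9.40 in knockout naive cells. In wild-type cells it was at 10.85 and 10.91 after activation, against 9.78, 9.71 and 9.54 in naive cells. The activated arrays were all higher, without overlap. The rise was 1.24 in knockout cells (SE 0.11, limma adjusted p = 4.43e-07) and 1.20 in wild-type cells (SE 0.12, adjusted p = 3.09e-06). Probe set 1436222_at rose likewise, by 0.66 in knockout and 0.53 in wild-type cells (adjusted p = 1.77e-05 and 0.000493).

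The other pair was lower in activated cells. Probe set 1449410_a_at was at 11.73, 11.90 and 11.82 in knockout activated cells, against 12.17, 12.14 and 12.19 in knockout naive cells. In wild-type cells it was at 11.80 and 11.91 after activation, against 12.12, 12.08 and 12.09 in naive cells. No activated array reached a naive one, but the gap was small. The difference was -0.35 in knockout cells (SE 0.07, limma adjusted p = 0.00103) and -0.24 in wild-type cells (SE 0.08, adjusted p = 0.0272). The wild-type call was lost without wild-type activated replicate 1 (-0.19) and without each of wild-type naive replicates 1, 2 and 3 (-0.23, -0.25 and -0.25). The fourth and brightest probe set, 1419291_x_at, differed by -0.18 in knockout cells (adjusted p = 0.0446) and by -0.13 in wild-type cells (adjusted p = 0.211). Its knockout call was lost when any 1 knockout array or wild-type naive array was left out, with a difference between -0.20 and -0.15. Without a wild-type naive array, which is outside this comparison, the difference stayed at -0.18 and only the shared spread and the adjustment changed.

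Over the 11 arrays the Gas5 pairs correlated within themselves at 0.98 and 0.96 and across at -0.88 to -0.94. Within groups the same correlations were 0.71 and 0.73 inside the pairs and -0.21 to 0.12 across them. Affymetrix names that end in _a_at, _s_at or _x_at mark probe sets that can match several transcripts, and the position of each probe set along its transcript was not analysed here. The direction of Gas5 as a whole was therefore not settled by these arrays. By group mean, 1424843_a_at was ordered wild-type activated (10.88), knockout activated (10.83), wild-type naive (9.68) and knockout naive (9.58), and neither the activated nor the naive neighbours differed beyond their spread. The genes most like the brightest Gas5 probe set over the arrays were Tmem80 (0.98, within groups 0.94), 5830428M24Rik (0.98, within groups 0.89) and Tbk1 (0.97, within groups 0.81).

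Snhg1 moved little. Probe set 1439399_a_at was at 11.80, 11.71 and 11.86 in knockout activated cells, against 11.42, 11.46 and 11.49 in knockout naive cells, with no overlap. In wild-type cells it was at 11.80 and 11.42 after activation, against 11.53, 11.65 and 11.49 in naive cells, and the 2 activated arrays lay on either side of all 3 naive ones. The difference was 0.34 in knockout cells (SE 0.09, limma adjusted p = 0.0115) and 0.06 in wild-type cells (SE 0.11, adjusted p = 0.732). The difference between these responses was 0.28 (interval -0.03 to 0.59, adjusted p = 0.396), which became 0.47 without wild-type activated replicate 1 and 0.09 without replicate 2.

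Probe set 1433675_at rose by 0.31 in knockout cells (limma adjusted p = 0.00512) and differed by 0.17 in wild-type cells (adjusted p = 0.163). Probe set 1437658_a_at fell by 0.31 on the log2 scale in wild-type cells (adjusted p = 0.0122), which became 0.0622 without wild-type activated replicate 2, where the difference was -0.29. In knockout cells it differed by -0.17 (adjusted p = 0.0983), and it passed there, at -0.23, without knockout activated replicate 3. The brightest probe set, 1433674_a_at, differed by 0.13 in knockout and 0.09 in wild-type cells (adjusted p = 0.192 and 0.442), and 1454703_x_at by 0.02 and -0.09 (adjusted p = 0.841 and 0.444). By group mean the brightest was ordered knockout activated (11.80), wild-type activated (11.77), wild-type naive (11.69) and knockout naive (11.67), with overlapping neighbours throughout. Its levels were most like those of 1700007L15Rik (0.93, within groups 0.94), Tmem250-ps (0.91, within groups 0.81) and Gtf2a2 (0.91, within groups 0.80).

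Other hosts of small nucleolar RNAs were read from a list. Of 22 measured other small nucleolar RNA host genes, 14 rose and 2 fell in knockout activation (median 0.56), and 13 rose and 3 fell in wild-type activation (median 0.45). Snhg3 rose by 2.39 in knockout and 2.11 in wild-type cells (limma adjusted p = 1.72e-09 and 2.93e-08). Dancr rose by 2.28 in knockout and 1.93 in wild-type cells (adjusted p = 9.65e-10 and 2.14e-08). Several genes of this list code for proteins of translation and ribosome assembly, such as Nop56, which also stands in the next list.

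Genes for proteins that bind small nucleolar RNAs or assemble their particles rose together. All 9 measured genes of the box C/D and H/ACA list passed as higher in both genotypes. Their median was 1.38 in knockout and 1.19 in wild-type activation. Naf1, an assembly factor of H/ACA particles, rose by 2.31 in knockout and 1.82 in wild-type cells (limma adjusted p = 4.22e-09 and 2e-07). Nhp2, a structural subunit of H/ACA particles, rose by 1.89 in knockout cells (adjusted p = 3.61e-09), and Nop58, a box C/D scaffold, by 1.61 in wild-type cells (adjusted p = 2.75e-07). Nonsense-mediated decay, which removes spliced Gas5, gave 3 higher and 3 lower of 9 genes in knockout activation and 0 higher and 4 lower in wild-type activation, with medians of 0.17 and -0.05. Smg1, the kinase of that pathway, differed by -1.06 in knockout and -1.11 in wild-type cells (adjusted p = 2.95e-07 and 1.04e-06). Upf1, its helicase, rose by 0.41 in knockout cells (adjusted p = 0.00452), and Smg9, a partner of Smg1, differed by -0.40 in wild-type cells (adjusted p = 0.00209).

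Malat1 was lower by value after activation in all 7 probe sets and both genotypes, and passed in all 7 in knockout and in 5 in wild-type cells. The largest difference was that of 1436202_at, which was at 7.78, 7.88 and 7.99 in knockout activated cells, against 10.11, 9.83 and 9.91 in knockout naive cells. In wild-type cells it was at 7.75 in both activated arrays, against 9.94, 9.96 and 9.64 in naive cells. The activated arrays were far below the naive ones in both genotypes. The difference was -2.07 in knockout cells (SE 0.10, 4.19-fold lower, limma adjusted p = 3.48e-09) and -2.10 in wild-type cells (SE 0.11, 4.28-fold lower, adjusted p = 2.01e-08).

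The brightest Malat1 probe set, 1418189_s_at, was at 10.62, 10.50 and 10.95 in knockout activated cells, against 12.28, 11.79 and 11.65 in knockout naive cells. In wild-type cells it was at 10.29 and 10.31 after activation, against 10.85, 10.92 and 11.59 in naive cells. Groups did not overlap within a genotype, and wild-type naive replicate 3 lay well above the other 2 arrays of its group. The difference was -1.22 in knockout cells (SE 0.20, limma adjusted p = 0.000174) and -0.82 in wild-type cells (SE 0.22, adjusted p = 0.00992). By group mean it was ordered knockout naive (11.91), wild-type naive (11.12), knockout activated (10.69) and wild-type activated (10.30). The wild-type naive and knockout activated arrays overlapped, and the other neighbours did not.

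In knockout cells the differences ran from -2.07 to -0.48. The 2 probe sets that did not pass in wild-type cells were 1438403_s_at at -0.66 (limma adjusted p = 0.0573) and 1429060_at at -0.26 (adjusted p = 0.0733). Without either wild-type activated array, 1418189_s_at no longer passed in wild-type cells (-0.81 without replicate 1 and -0.83 without replicate 2), and neither did 1418188_a_at (-0.85 and -0.74). Probe set 1418188_a_at was also lost without wild-type naive replicate 3, at -0.54. Probe set 1438403_s_at passed without wild-type naive replicate 1 (-0.83), and its difference was -0.39 without wild-type naive replicate 3, where it did not pass. It also passed without knockout naive replicate 1 or 3, arrays outside this comparison. There its difference stayed at -0.66, and only the shared estimate of the spread and the adjustment changed. The response in knockout minus that in wild-type cells lay between -0.63 and 0.03 over the 7 probe sets (adjusted p 0.412 to 0.945).

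Markers of T cells and of other cells moved in the same comparison, where 21.9% of all genes fell in knockout and 20.4% in wild-type activation. Of 9 measured T cell markers 7 fell in each genotype, with a median of -0.76 in knockout and -0.55 in wild-type cells, and 1 rose in wild-type cells. Of 9 B cell markers 6 fell and 0 rose in each genotype, and of 8 macrophage and monocyte markers 5 fell and 0 rose in each. Of 6 erythroid markers 2 fell in knockout cells (median -0.82) and 4 in wild-type cells (median -2.31). Not every list went 1 way: of 5 plasma cell markers 1 rose and 1 fell in each genotype. Of 4 natural killer cell markers 1 rose in each genotype, and 2 fell in knockout and 1 in wild-type cells. The summed macrophage and monocyte level was 8.89 to 9.17 in knockout activated, 8.998 to 9.012 in wild-type activated, 9.63 to 10.3 in knockout naive and 9.55 to 9.78 in wild-type naive cells. The gap between the 3′ and 5′ control probe sets of Actb, a sign of RNA quality, was 0.54 to 0.57 log2 in knockout activated, 0.45 to 0.52 in wild-type activated, 0.38 to 0.44 in knockout naive and 0.42 to 0.44 in wild-type naive cells. The gap of Gapdh was 0.27 to 0.34 in knockout activated, 0.24 to 0.29 in wild-type activated, 0.27 to 0.45 in knockout naive and 0.35 to 0.36 in wild-type naive cells. Their part in the activation differences was not tested.

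Neat1 had 2 probe sets, of which the brighter, 1428083_at, was lower in activated cells. It was at 8.76, 9.23 and 9.05 in knockout activated cells, against 10.29, 10.11 and 10.12 in knockout naive cells. In wild-type cells it was at 9.46 and 9.10 after activation, against 9.76, 10.06 and 9.91 in naive cells. The groups did not overlap, and the gap was narrower in wild-type cells. The difference was -1.16 in knockout cells (SE 0.13, 2.23-fold lower, limma adjusted p = 5.19e-06) and -0.63 in wild-type cells (SE 0.14, 1.55-fold lower, adjusted p = 0.00331). The wild-type call was lost without wild-type activated replicate 2, where the difference was -0.45 and the adjusted p 0.068.

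The second Neat1 probe set, 1442881_at, lay between 6.72 and 7.07 in all 11 arrays and differed by 0.09 in knockout (interval -0.11 to 0.30) and 0.01 in wild-type cells (interval -0.22 to 0.24; limma adjusted p = 0.501 and 0.958). The 2 probe sets correlated at -0.30 over the arrays. By group mean 1428083_at was ordered knockout naive (10.17), wild-type naive (9.91), wild-type activated (9.28) and knockout activated (9.01), and only the last neighbours overlapped. The response of knockout cells differed from that of wild-type cells by -0.53 (interval -0.94 to -0.12), which did not pass (unadjusted p = 0.0159, adjusted p = 0.275) and was -0.35 without wild-type activated replicate 1 and -0.71 without replicate 2. Levels most like it over the arrays were those of Ms4a6c (0.98, within groups 0.87), Zc3h6 (0.98, within groups 0.87) and Sfxn3 (0.98, within groups 0.93).

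Among genes for paraspeckle proteins, the transcripts that passed moved the other way from the brighter Neat1 probe set. The proteins themselves were not measured. Of 13 measured genes 9 rose and 0 fell in knockout activation and 8 rose and 0 fell in wild-type activation, with a median of 0.33 in each genotype. Tardbp, the RNA-binding protein TDP-43, rose by 1.80 in knockout and 1.17 in wild-type cells (limma adjusted p = 3.11e-09 and 7.21e-07). Sfpq, a core paraspeckle protein, rose by 1.15 in knockout cells (adjusted p = 7.32e-07), and Pspc1, another, by 0.66 in wild-type cells (adjusted p = 0.00022). Of 13 nuclear speckle and splicing genes 5 rose and 4 fell in knockout activation and 3 rose and 3 fell in wild-type activation, with medians of 0.14 and 0.06. Srsf3, a splicing factor, rose by 0.76 in knockout and 0.55 in wild-type cells (adjusted p = 1.28e-06 and 0.000112), Srsf1 rose by 0.89 in knockout cells (adjusted p = 1.21e-06), and Srsf5 differed by -0.60 in wild-type cells (adjusted p = 2.46e-05).

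Knockout and wild-type cells were then compared within each state. In naive cells 0 of the 19 probe sets passed (limma), where 0.158% of all probe sets did, and in activated cells 0 passed, where 0.0733% did. On the mean of both states 0 passed, where 0.218% did, and the smallest adjusted p among the 19 was 0.221. The interaction, too, was passed by 0 of the 19 and by 0% of all probe sets. At an unadjusted p under 0.05, 6 of the 19 had a naive difference, all of Malat1, against 14.2% of all probe sets, and 1, Mir155hg, had an activated difference, against 8.23%. On the mean of both states 5 of the 19 reached that level, all of Malat1, against 8.26%, and in the interaction 2 did, Mir155hg and Neat1 1428083_at, against 14%. Probe sets of Malat1 were the only members with naive differences over 0.3. They read 1 gene on the same arrays, so the counts that rest on them are not counts of separate observations.

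**Figure D3:**
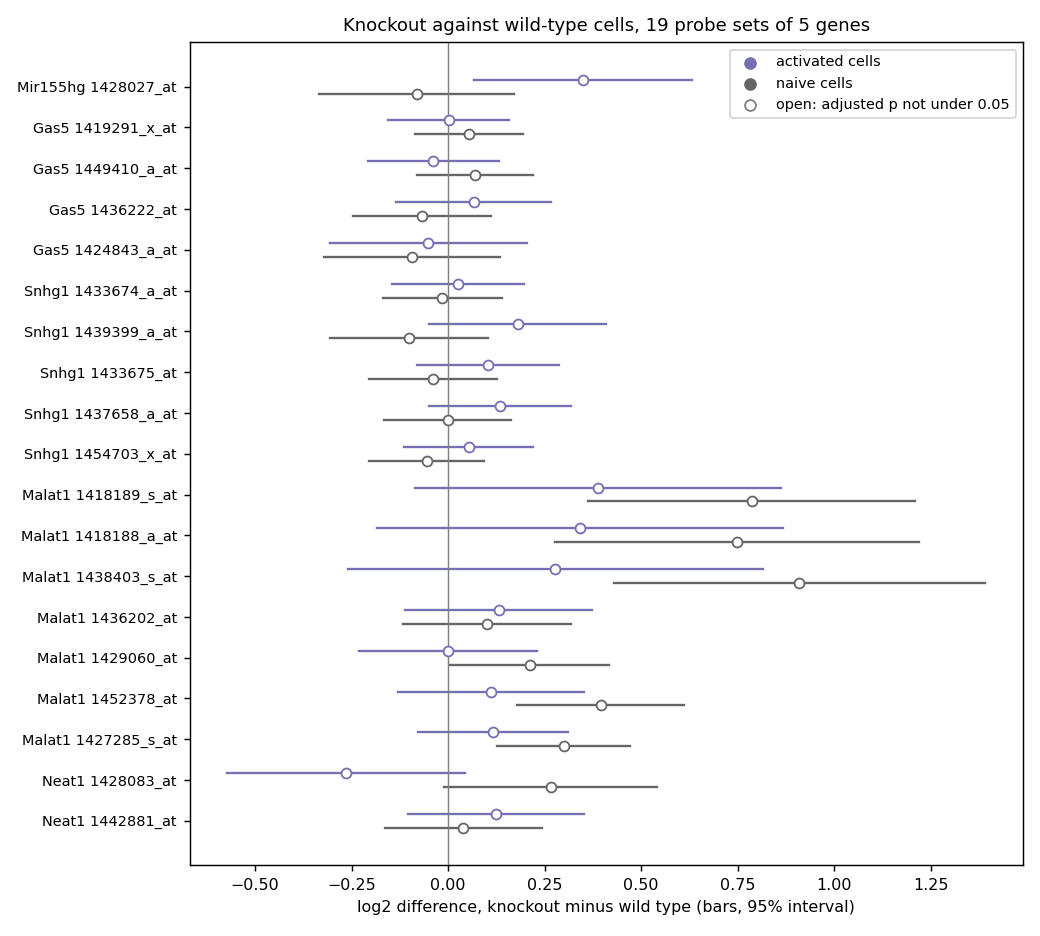
Log2 difference, knockout minus wild type (horizontal axis), of each of the 19 probe sets (vertical axis) in activated and in naive cells, with 95% intervals as bars; all points are open because 0 passed an adjusted p under 0.05. Malat1 lies above 0 in all 7 probe sets in naive cells, from 0.10 to 0.91.

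Malat1 was higher in knockout naive than in wild-type naive cells by value in all 7 probe sets, but none passed. The probe set with the largest difference, 1438403_s_at, was at 10.59, 9.91 and 9.78 in knockout naive cells, against 8.84, 8.998 and 9.71 in wild-type naive cells. Its groups stood apart by a narrow margin, between knockout replicate 3 and wild-type replicate 3. The difference was 0.91 (SE 0.22, 95% interval 0.43 to 1.39, 1.88-fold, limma adjusted p = 0.131). It was 0.79 for 1418189_s_at, 0.75 for 1418188_a_at, 0.39 for 1452378_at, 0.30 for 1427285_s_at, 0.21 for 1429060_at and 0.10 for 1436202_at, with adjusted p from 0.138 to 0.69. In 5 of the 7 probe sets every knockout array was above every wild-type array, against 9.81% of all probe sets with groups apart in that direction, and the other 2 members of that kind were Gas5 1449410_a_at (0.07) and Neat1 1428083_at (0.27). The 7 probe sets read 1 gene on the same arrays, so they are not separate observations to set against that share.

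Whether some of these Malat1 differences passed changed with 1 array. With each array left out in turn, the difference of 1438403_s_at lay between 0.66 and 1.17 and that of 1418189_s_at between 0.60 and 1.02. Wild-type naive replicate 3 was the highest of its group in 5 of the 7 probe sets, and knockout naive replicate 1 the highest of its group in 5. Without wild-type naive replicate 3, 4 probe sets passed: 1438403_s_at at 1.17 (limma adjusted p = 0.021), 1418189_s_at at 1.02 (0.021), 1418188_a_at at 1.00 (0.0341) and 1427285_s_at at 0.37 (0.0477). In the same fit 1436202_at was at 0.00 (adjusted p = 0.996), and the number of all probe sets that passed was 525, against 71 with every array. Without knockout naive replicate 1 the difference of 1438403_s_at was 0.66 and its adjusted p 0.176. On the mean of both states 1 Malat1 probe set, 1418189_s_at, passed without wild-type naive replicate 3, at 0.71.

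**Figure D4:**
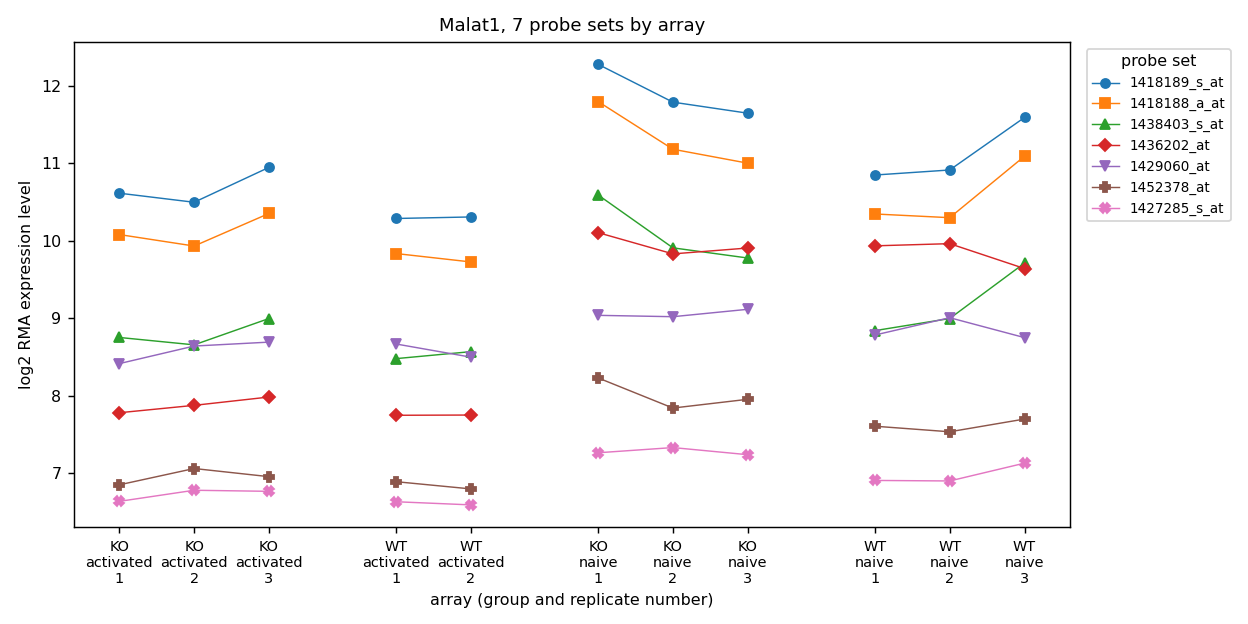
Log2 RMA level (vertical axis) of the 7 Malat1 probe sets in each of the 11 arrays (horizontal axis, by group and replicate number); lines join arrays of 1 group only to show a probe set, since replicates have no order. Probe sets 1418189_s_at, 1418188_a_at and 1438403_s_at are high together in knockout naive replicate 1 and wild-type naive replicate 3, and 1436202_at is not raised in wild-type naive replicate 3 (9.64).

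The 7 Malat1 probe sets did not all follow each other within groups. Probe sets 1418189_s_at, 1418188_a_at and 1438403_s_at correlated at 0.97 to 0.98 in their deviations from the group means over the 11 arrays. Their correlations with 1436202_at and 1429060_at were -0.07 to -0.25, and those with 1452378_at and 1427285_s_at 0.55 to 0.64. The genes most like 1418189_s_at over the arrays were Nsa2 (0.94, within groups 0.85), Zfand5 (0.93, within groups 0.56) and Kank1 (0.93, within groups 0.46).

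Markers of other cells differed between the same naive arrays by value. The summed B cell level was 11.7, 10.7 and 10.9 in knockout naive cells, against 10.4, 10.7 and 10.7 in wild-type naive cells. Knockout naive replicate 1 was the highest array in this sum, in that of macrophages and monocytes (10.3) and in that of neutrophils (10.4). The summed erythroid level was 11.5, 9.99 and 9.37 in knockout naive cells, against 13.0, 11.9 and 11.0 in wild-type naive cells. The summed natural killer cell level was 11.7, 10.3 and 9.99 in knockout naive cells, against 10.6, 10.2 and 10.8 in wild-type naive cells, and these groups overlapped. Of 9 B cell, 8 macrophage, 6 neutrophil and 6 erythroid markers 0 passed in the naive genotype comparison. Of 4 natural killer cell markers only Klra8 passed, as higher (0.94, limma adjusted p = 0.0375). Their part in the Malat1 values was not tested.

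In activated cells the genotype differences of Malat1 were smaller by value. They lay between 0.00 and 0.39, with adjusted p of 0.696 or more. In 5 of the 7 probe sets every knockout array was above every wild-type array, against 10.1% of all probe sets with groups apart in that direction, and 1 other member, Snhg1 1437658_a_at, was of that kind (0.14). Here, too, the 7 probe sets are repeated readings of 1 gene. Gas5 differed by -0.09 to 0.07 in naive and -0.05 to 0.07 in activated cells, and Snhg1 by -0.10 to 0.00 in naive and 0.03 to 0.18 in activated cells. Neat1 1428083_at differed by 0.27 in naive cells (interval -0.01 to 0.54, limma adjusted p = 0.369) and by -0.26 in activated cells (interval -0.57 to 0.04, adjusted p = 0.676). The activated difference was -0.08 without wild-type activated replicate 1 and -0.45 without replicate 2.

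Among the related lists 2 genes passed between the genotypes in naive cells, where 0.148% of all genes passed by their brightest probe set (0.0605% did so in activated cells and 0.143% on the average over both states). Snhg14, a small nucleolar RNA host from the region known in humans for Prader-Willi syndrome, was lower in knockout than in wild-type naive cells (-0.57, SE 0.09, limma adjusted p = 0.0259), and it was also lower on the mean of both states (-0.37, adjusted p = 0.0473). Tardbp was lower in knockout naive cells (-0.55, SE 0.09, adjusted p = 0.0279). Snhg14 was 1 of 22 measured genes of its list and Tardbp 1 of 13, and each was read by 1 probe set. Naive genotype calls over all probe sets ran from 23 to 525 with 1 array left out. Whether these 2 genes stayed among them is not given here. In the other functional lists 0 genes passed a genotype comparison.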

How the data were processed

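Total RNA of splenic T cells was amplified from its poly(A) fraction, labelled with biotin and put on one-colour Affymetrix arrays of mouse probe sets, 1 array a sample. Per the submitters' processing notes, GCOS, RMA and Partek were used, with versions and settings not given in the sources used here. Those log2 values, as deposited, span 2.32 to 15.0 with array medians of 5.84 to 5.89, and they were not normalized further. Symbols came from the platform annotation: 34958 probe sets had 1, 932 several and 9211 none. The 64 control probe sets were left out.

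A limma 3.58.1 model (R 4.3.3) of 4 group means and moderated variances (5.85 prior and 7 residual degrees of freedom) gave 6 comparisons: genotype in naive cells, genotype in activated cells, genotype averaged over the states, activation in each genotype, and the interaction. In each, Benjamini-Hochberg adjustment ran over 45037 probe sets. Adjusted p-values are from this fit unless an array is said to be left out or an alternative is named. The fit was also run on simulated data with independent errors, which cannot show how shifts of a whole array affect it. The number of arrays limits precision. The labels call the replicates biological, and no label ties equal numbers to an animal.

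The members and the gene lists were chosen with earlier results of these data known. Named were every member probe set, Crbn, the 3 genes most correlated with each member's brightest probe set (among genes brighter than the median), and up to 2 genes of each list with the largest difference past the threshold. Nop56, an example of a gene in 2 lists, was named outside this rule. The alternatives were 1 probe set per gene, a filter on dim probe sets, a variance trend with a robust prior, only the compared arrays, array weights, repeated quantile normalization, median centring, a replicate block and leaving out each array. Coordinates are RefSeq's on GRCm38.p6. Sequences, motifs and figures used Python 3.11.15, pandas 2.3.3 and matplotlib 3.10.9.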

Additional observations from a re-analysis of the deposited data

Results flagged for a closer look

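For 2 probe sets every knockout array lay on one side of the wild-type mean in activated cells and every knockout array lay on the other side in naive cells. For Neat1 1428083_at the genotype difference was -0.26 in activated and 0.27 in naive cells, a change of -0.53 that did not pass the interaction test (limma adjusted p = 0.275). For Snhg1 1439399_a_at it was 0.18 in activated and -0.10 in naive cells, a change of 0.28 that did not pass either (adjusted p = 0.396). With wild-type activated replicate 2 left out, this Snhg1 probe set differed by -0.01 in activated cells, on the same side as in naive cells, and with replicate 1 left out by 0.37. By group means alone the genotype difference changed sign between the states in 10 of the 19 member probe sets, of which 1 belonged to Mir155hg and 5 to Snhg1.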

How the results depend on the processing

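Member differences that passed gave 475 values under the alternatives, of which 0 had the other sign. Many of these values could not change. The 1 probe set per gene, the dim filter, the variance trend and the compared arrays alone leave a difference as it is. So does leaving out an array outside the comparison. The count is therefore no measure of stability. Those that did not pass were recomputed 1569 times, and in 71 the sign changed while the difference still did not pass. Taking 1 probe set per gene, which tests fewer, gave 27 naive genotype, 11 activated genotype, 7475 wild-type activation, 7849 knockout activation and 19 mean genotype calls. The filter on dim probe sets gave 45 naive genotype calls and the variance trend 1 interaction call. The compared arrays alone gave 16 naive and 6 activated genotype calls. Array weights gave 505 naive genotype calls, 4 of them members, all Malat1, and 11 activated genotype, 1 interaction and 62 mean genotype calls.

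With the replicate block there were 384 naive genotype and 18 interaction calls. The deviations of same-numbered arrays correlated at -0.27 to 0.32, with 5 of 15 over 0.1. Those of arrays with different numbers correlated at -0.28 to 0.27, with 5 of 30 over 0.1. Knockout naive and activated arrays of the same number correlated at 0.25, 0.06 and 0.19, and those of different numbers at 0.02 or less. In wild-type cells the same-numbered values were -0.27 and -0.185. Same-numbered naive arrays of the 2 genotypes correlated at 0.32, -0.01 and 0.23. Deviations from group means sum to 0 within a group, so values of same and of different numbers depend on each other. The 2 wild-type activated arrays mirror each other exactly. These values did not settle whether the numbers pair samples, and no pairing was used because no label gives one. With the block, 14 member probe sets passed in knockout activation, 11 in wild-type activation and 0 in the genotype comparisons and the interaction.

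Leaving out 1 array gave 23 to 525 naive genotype calls (members 0 to 4), 2 to 42 activated genotype calls, 0 to 12 interaction calls, 37 to 97 mean genotype calls (members 0 to 1) and 7 to 12 member calls in wild-type activation. In knockout activation Snhg1 1439399_a_at did not pass after quantile normalization again (0.23, adjusted p = 0.084), where 1437658_a_at did (-0.25). Gas5 1419291_x_at did not pass with the compared arrays alone (adjusted p = 0.0571), median centring (-0.15, 0.0993) or the replicate block (0.0692). In wild-type activation Gas5 1449410_a_at did not pass with the compared arrays alone (0.0707) or array weights (0.057), nor Malat1 1418188_a_at with the variance trend (0.0773) or array weights (0.0987). Malat1 1438403_s_at and 1429060_at passed there with the filter on dim probe sets (0.0433 and 0.0478). The cause of these changes was not tested. Where 1 wild-type activated array was left out, the lone array was assumed to vary like the other groups. Naive Mir155hg lies near the dimmest quartile, which limits its fold.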

Other observations

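Of 18 measured other long noncoding RNAs, 4 rose and 5 fell in knockout activation and 5 rose and 6 fell in wild-type activation, with medians of -0.04 and 0.03. Pvt1, a noncoding neighbour of Myc, rose by 1.16 in knockout and 0.99 in wild-type cells (limma adjusted p = 6.38e-07 and 1.34e-05). Xist, the RNA of the inactive X chromosome, differed by -0.75 in wild-type cells (adjusted p = 1.45e-05), and Lncpint by -0.81 in knockout cells (adjusted p = 0.000556). Both were named by size in 1 genotype, and either may have passed in the other as well.

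Mir17hg itself has no value here, but 11 genes reported as targets of its microRNA cluster were measured, of which 5 rose and 5 fell in each genotype, with medians of 0.28 in knockout and -0.01 in wild-type activation. Tnfaip3, an inhibitor of NF-kB signalling, differed by -2.20 in knockout and -2.18 in wild-type cells (limma adjusted p = 3.81e-10 and 2.45e-09). Socs1, which stands in this list as well, rose by 1.81 in knockout and 1.61 in wild-type cells.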
